A study of Mus musculus with 8 samples.

Results

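The spliceosome removes introns from pre-mRNA and is built from small nuclear ribonucleoproteins (snRNPs), each an snRNA with a ring of Sm or Lsm proteins and a set of specific proteins. The U1 snRNP reads the 5′ splice site, the U2 snRNP with its SF3A and SF3B proteins reads the branch point with help from U2AF, and the U4/U6.U5 tri-snRNP brings in the catalytic core. Blood-forming cells are known to be sensitive to this machinery, since SF3B1 and U2AF1 are recurrently mutated in human myelodysplastic syndromes. The genes described here are the 58 of 55401 in the deposited count table whose symbols begin with Snrp, Snrnp, Lsm and a digit, Sf3a, Sf3b, Prpf or U2af, after 2 pseudogene symbols ending in -ps and a digit were left out. All 58 passed the filter on low counts and were tested.

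The RNA was that of haematopoietic stem cells (HSCs), taken from the marrow of C57BL/6 mice at 8 weeks of age. The sources give about 3000 sorted cells and, for library construction, 500 cells, without saying how these relate. The 4 CKO libraries came from Nynrin fl/fl Tie2-Cre mice, in which Cre under the Tie2 promoter, active in endothelium and in blood cells, deletes floxed Nynrin. The 4 WT libraries, labelled wild type, came from Nynrin fl/fl mice without Cre, so the floxed alleles are shared and Cre itself cannot be told apart from loss of Nynrin. The labels do not tie each library to a mouse of its own, so the spread behind every p-value is that of libraries and could be technical. The comparison asks which transcripts of the splicing machinery differ in HSCs of Nynrin CKO mice.

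Deposited counts summed to 43998525 to 56437299 per CKO library and 36942835 to 50260720 per WT library. Nynrin itself stood at 12.7, 12.3, 8.24 and 8.22 CPM in CKO 1 to 4, against 41.3, 47.5, 30.1 and 30.4 CPM in WT 1 to 4. The 2 groups did not overlap, and the log2 fold change came to -1.85, standard error (SE) 0.22 (edgeR adjusted p = 0.0345). CPM values are counts scaled to library size with TMM factors. The libraries also fell into 2 sets that genotype does not explain. CKO 3 and 4 and WT 4 had 134 to 213 CPM, unscaled, on olfactory and vomeronasal receptor genes, and the other 5 libraries had 854 to 1601. Xist was above 100 CPM in WT 3 and 4 only. Summed levels of 10 HSC markers were 3117 to 3733 CPM in CKO and 2700 to 3576 CPM in WT. Summed levels of 9 neutrophil markers were 468 to 4073 CPM in CKO and 204 to 354 CPM in WT, and those of 6 mast cell and basophil markers were 29.2 to 123.9 CPM in CKO and 8.45 to 29.7 CPM in WT. Sums of 9 neutrophil, 7 monocyte and macrophage, 6 erythroid, 6 B cell and 5 T and NK cell markers were above the whole WT range in every CKO library, while those of mast cell and endothelial markers overlapped. Single genes wholly above WT were 7 of 9 for neutrophils, 4 of 7 for monocytes and macrophages, 2 of 6 for erythroid cells, 4 of 6 for B cells and 1 of 5 for T and NK cells, where Nkg7 made up nearly the whole sum and Cd3e, Cd3d, Cd8a and Gzma overlapped. No marker of these lists was at 0 in all libraries or in all WT libraries. Their part in the results below was not tested. In bulk samples, fewer cells of a type and less RNA per cell cannot be told apart.

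Of the 58 genes, 8 were higher in CKO and none was lower at an adjusted p under 0.05, against 2.22% higher and 0.588% lower of the 27573 genes tested. The 8 were Lsm3, Lsm4, Lsm8, Snrpd2, Snrpb2, Snrnp27, Snrnp40 and Prpf38a, which make 13.8% of the members. At an unadjusted p under 0.05, 27 members were higher and 2 lower, or 46.6% and 3.45% of the members, against 13.2% and 5.78% of all genes. The groups did not overlap for 18 members with CKO above WT and for 1, Snrnp200, with CKO below, or 31.0% and 1.72% of the members, against 9.52% and 4.83% of all genes. The median log2 fold change of the members was 0.26 and that of all tested genes -0.09, and 44 of the 58 (75.9%) were positive, against 44.5% of all genes. All 58 were among 16771 genes with a mean of at least 1 CPM, whereas the 27573 also hold weakly expressed genes. Among the 16771, the positive share ran from 79.3% in the fifth with the shortest transcripts to 34.8% in that with the longest. With a filter at 1 CPM in 4 libraries, 9 members were higher and 1 lower, against 4.11% and 2.76% of 17210 genes.

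The sign of the members' own median was not the same under all of 4 scalings. A scaling shifts all genes of a library alike, so the members' difference from all genes could hardly change with it. The median of members minus that of all genes was 0.35 with TMM, RLE or upper-quartile factors and 0.33 with library totals alone. The difference moved more with the genes and libraries used, to 0.18 with a filter at 1 CPM in 4 libraries, 0.60 with no filter, and 0.54 without WT 4 or without CKO 1. No member passed with RLE factors or library totals, where 19 and 11 were higher and 5 and 9 lower at an unadjusted p under 0.05, and upper-quartile factors gave 2 higher and 1 lower (edgeR). The members' median itself was 0.26 with TMM, 0.21 with RLE factors, 0.15 with upper-quartile factors and -0.01 with library totals, where the median of all genes was -0.34. The 58 genes held 0.600%, 0.597%, 0.532% and 0.530% of raw counts in CKO 1 to 4, against 0.567%, 0.564%, 0.591% and 0.614% in WT 1 to 4, so the groups overlapped on that scale. The TMM-scaled sums were 5853, 5845, 6610 and 6583 CPM in CKO 1 to 4, against 5219, 5073, 5129 and 5891 CPM in WT 1 to 4. On the scaled values CKO 1 and 2 lay below WT 4.

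The number of calls changed with the libraries and the setting, among members as among all genes. When any one of CKO 1 to 4 or WT 1 to 3 was left out, no member passed in edgeR (0 higher and 0 lower), with 14 to 27 higher and 1 to 6 lower at an unadjusted p under 0.05. Over all genes the same fits called 1 to 6 higher and 0 to 4 lower, so few genes of any kind passed. Without WT 4, 13 members were higher, the 8 among them, and 0 lower, with 1129 higher and 243 lower over all genes. On all libraries DESeq2 called 13 members higher and 2 lower, against 10.1% and 6.0% of the 16327 genes to which it gave an adjusted p. limma-voom called 14 higher and 1 lower, against 5.91% and 1.8% of all tested genes. In all 23 alternative settings the 8 genes had positive log2 fold changes and an unadjusted p under 0.05. Those log2 fold changes ran from 0.29 with library totals to 0.98 in the set with more receptor reads. The 8 were picked on these same libraries, so this is no separate support. WT 4 was the highest WT library for all 8 of them and for 37 of the 58 members.

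**Figure D1:**
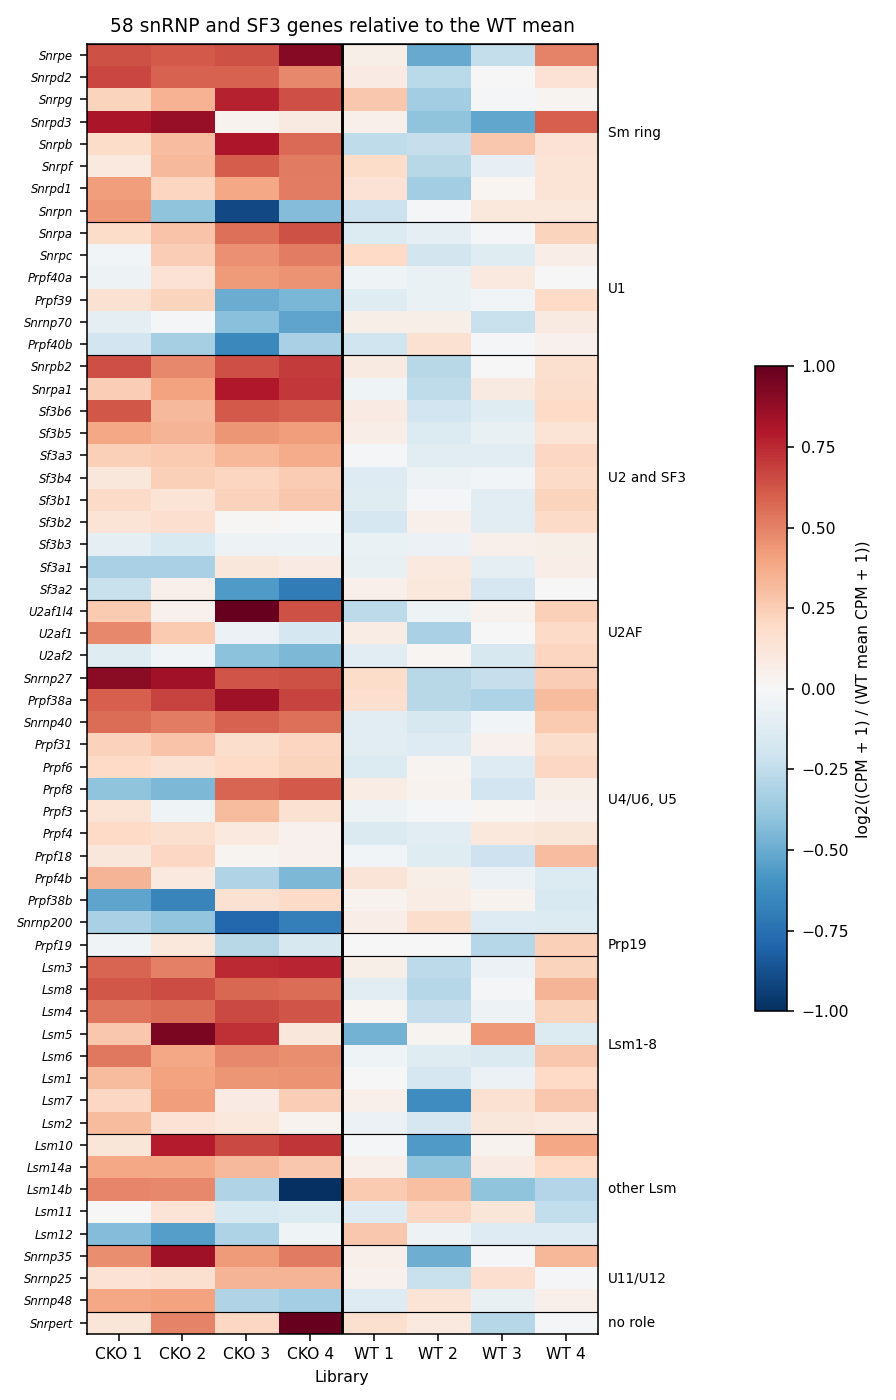
Each row is one of the 58 genes, grouped by role, and each column a library, CKO 1 to 4 and then WT 1 to 4; colour gives log2((CPM + 1) / (WT mean CPM + 1)), with values beyond -1 and 1 shown at the end colours. Rows of Lsm3, Lsm4, Lsm8, Snrpd2, Snrpb2, Snrnp27, Snrnp40 and Prpf38a are red in all 4 CKO libraries, while Prpf8, Snrpd3 and Snrnp48 differ between CKO 1 and 2 and CKO 3 and 4.

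The Sm proteins form the ring around the snRNAs U1, U2, U4 and U5. Of 8 genes, Snrpd2 rose, none fell and 7 had positive log2 fold changes, with a list median of 0.50. Of all tested genes, 2.22% rose, 0.588% fell and 44.5% were positive. The median transcript of the list was 1238 bases. Among expressed genes with transcripts up to 1665 bases, 79.3% were positive and 7.39% rose. Snrpd2 encodes SmD2 and lies at chr7:19149722-19153542 in mm10. It stood at 81.3, 76.8, 76.9 and 71.2 CPM in CKO 1 to 4, against 53.7, 41.9, 50.8 and 56.1 CPM in WT 1 to 4. The lowest CKO library was above the highest WT library, the means were 76.5 ± 4.12 CPM in CKO and 50.7 ± 6.22 CPM in WT (SD, n = 4 each), and the log2 fold change was 0.60 (SE 0.11; edgeR adjusted p = 0.0408; exact two-sided permutation p = 0.0286, the lowest value open to groups of 4). In its longest annotated transcript 11.7% of the 50-base windows occur exactly in transcripts of other genes, mostly those of Gm10120, so reads from such copies could be counted on either record.

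Snrpe, which encodes SmE, was at 109, 107, 109 and 132 CPM in CKO 1 to 4, against 72.6, 48.9, 59.1 and 98.7 CPM in WT 1 to 4. The groups did not overlap, although WT 4 came close to the lowest CKO library, and the log2 fold change of 0.71 (SE 0.20) did not pass (edgeR adjusted p = 0.0863). In 5 of the 23 alternative settings Snrpe passed as higher. Snrpe shares 20.8% of its windows with other genes, mostly with Snrpert, a short member record of 279 bases that carries 55.7% of its windows in common with Snrpe. Snrpert stood at 6.27, 8.44, 6.74 and 13.9 CPM in CKO 1 to 4, against 6.50, 6.17, 4.49 and 5.63 CPM in WT 1 to 4, with CKO 4 above the other 7 libraries. Snrpert also overlaps Rnf24 on the same strand, which holds 525.5% as many counts, so reads of Rnf24 could be counted on it. Snrpg, which encodes SmG, was at 70.8, 77.5, 104 and 95.2 CPM in CKO 1 to 4, against 73.3, 47.4, 59.6 and 61.7 CPM in WT 1 to 4. CKO 1 lay within the WT range, and the log2 fold change was 0.52 (SE 0.17; edgeR adjusted p = 0.115).

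Snrpb encodes SmB/B′ and was the most abundant Sm gene. Its level was 291, 318, 451 and 382 CPM in CKO 1 to 4, against 215, 219, 309.9 and 284 CPM in WT 1 to 4, so CKO 1 lay below WT 3 and the log2 fold change of 0.49 did not pass (SE 0.18; edgeR adjusted p = 0.168). Snrpn encodes SmN, the imprinted relative of SmB that is best known from neurons. It was at 6.12, 2.99, 1.83 and 2.91 CPM in CKO 1 to 4, against 3.55, 4.21, 4.68 and 4.68 CPM in WT 1 to 4, with CKO 1 highest and CKO 3 lowest of all 8 libraries (log2 fold change -0.31, SE 0.36; edgeR adjusted p = 0.732). Divided by the length of the longest annotated transcript, Snrpb was at 211 CPM per kilobase in CKO and 150.0 in WT, and Snrpn at 1.67 CPM per kilobase in CKO and 2.06 in WT. Snrpd1, Snrpf and Snrpd3, chosen for mention after their values were seen, encode SmD1, SmF and SmD3 and had log2 fold changes of 0.39, 0.41 and 0.51 (edgeR adjusted p = 0.131, 0.168 and 0.399).

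The Lsm proteins are relatives of the Sm proteins. Lsm2 to Lsm8 form the nuclear ring at the end of U6 snRNA, and with Lsm1 in place of Lsm8 the ring acts in cytoplasmic mRNA decay. All 8 genes had positive log2 fold changes, with a list median of 0.53. Lsm3, Lsm4 and Lsm8 rose, none fell, and 5 lay wholly above WT. Of all tested genes, 44.5% were positive, 2.22% rose, 0.588% fell and 9.52% lay wholly above WT. The median transcript of the list was 1809 bases. Among expressed genes with transcripts of 1666 to 2669 bases, 70.8% were positive and 5.31% rose. Lsm4, at chr8:70673248-70678752, had 106, 107, 115 and 113 CPM in CKO 1 to 4, against 73.6, 61.4, 69.9 and 84.8 CPM in WT 1 to 4. The CKO libraries lay close together and all above WT, with a log2 fold change of 0.60 (SE 0.11; edgeR adjusted p = 0.0408; exact two-sided permutation p = 0.0286). Lsm3, at chr6:91515928-91522625, had 91.7, 87.0, 103 and 104 CPM in CKO 1 to 4, against 63.5, 50.7, 58.6 and 71.4 CPM in WT 1 to 4. Again the groups were apart, and the log2 fold change was 0.66 (SE 0.13; edgeR adjusted p = 0.0408). No 50-base window of the longest transcripts of Lsm3 or Lsm4 occurred in another gene.

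Lsm8, the subunit that sets the nuclear ring apart, lies at chr6:18848579-18855751 and had 69.2, 70.8, 67.0 and 66.2 CPM in CKO 1 to 4, against 41.3, 36.4, 44.1 and 56.6 CPM in WT 1 to 4. The log2 fold change was 0.62 (SE 0.14; edgeR adjusted p = 0.0491). Lsm1, the subunit of the decay ring, was at 44.8, 47.6, 48.8 and 49.2 CPM in CKO 1 to 4, against 35.7, 31.8, 34.3 and 41.2 CPM in WT 1 to 4. Its groups did not overlap either, and its log2 fold change was 0.41 (SE 0.11; edgeR adjusted p = 0.0692). Lsm6 and Lsm5 were at 0.47 and 0.59 (edgeR adjusted p = 0.0583 and 0.251), and Lsm7 and Lsm2 at 0.25 and 0.16 (edgeR adjusted p = 0.560 and 0.541). Lsm1, Lsm2, Lsm5, Lsm6 and Lsm7 were named after their values were seen, to complete the ring. Among 8 partners of the Lsm1 ring in mRNA decay, such as decapping factors, none passed in either direction, 1 had a positive log2 fold change and the median was -0.16.

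The other Lsm genes did not pass. Lsm10, which with Lsm11 replaces SmD proteins in the U7 snRNP that trims histone pre-mRNA, had 30.5, 48.8, 44.7 and 46.4 CPM in CKO 1 to 4, against 27.7, 18.5, 28.6 and 36.7 CPM in WT 1 to 4. CKO 1 lay within the WT range (log2 fold change 0.61, SE 0.22; edgeR adjusted p = 0.158). Lsm11 was at 6.14 ± 0.689 CPM in CKO and 6.30 ± 1.07 CPM in WT (SD, n = 4 each), with a log2 fold change of -0.04 (edgeR adjusted p = 0.952). Lsm14a, a cytoplasmic regulator of mRNA translation and decapping, ran over 23.3 to 25.4 CPM in CKO and 14.3 to 22.1 CPM in WT, apart in all libraries but short of the threshold (0.36; edgeR adjusted p = 0.213). Lsm12 ran over 24.1 to 34.7 CPM in CKO and 32.7 to 43.4 CPM in WT (-0.33; edgeR adjusted p = 0.264). Lsm14b was the one member with under 10 counts in a library, with 0 counts in CKO 4.

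Of 11 genes of the U2 snRNP and SF3, Snrpb2 rose, none fell and 8 were positive, with a median of 0.21. The shares of all tested genes were 2.22% rising, 0.588% falling and 44.5% positive. Snrpb2 encodes U2B″, the U2 snRNA binding protein, and had 59.5, 53.0, 59.4 and 61.6 CPM in CKO 1 to 4, against 40.0, 30.8, 37.6 and 42.1 CPM in WT 1 to 4. All CKO libraries were above all WT libraries, and the log2 fold change was 0.63 (SE 0.12; edgeR adjusted p = 0.0408; exact two-sided permutation p = 0.0286). Its U2 partner Snrpa1, named after its values were seen, had 89.1, 99.5, 131 and 123 CPM in CKO 1 to 4, against 72.7, 62.7, 79.9 and 85.0 CPM in WT 1 to 4, apart in all libraries with a log2 fold change of 0.56 (edgeR adjusted p = 0.0773). Sf3b6, the small subunit next to the branch point adenosine, had 169.5, 138, 169 and 166 CPM in CKO 1 to 4, against 117, 96.4, 101 and 126 CPM in WT 1 to 4. Its adjusted p of 0.0503 (edgeR) was just above the threshold, so it did not pass, at a log2 fold change of 0.55 (SE 0.12). Sf3b5, another small subunit of SF3B, ran over 61.9 to 66.5 CPM in CKO and 44.0 to 53.5 CPM in WT (0.41; edgeR adjusted p = 0.0549). Of the 23 alternative settings, Sf3b6 passed as higher in 6 and Sf3b5 in 4.

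Sf3b1, the large scaffold of SF3B that holds the branch point, was among the most abundant members. It stood at 687, 661, 707 and 725 CPM in CKO 1 to 4, against 552, 593, 559 and 705 CPM in WT 1 to 4. WT 4 lay among the CKO values, and the log2 fold change was 0.21 (SE 0.12; edgeR adjusted p = 0.411; exact two-sided permutation p = 0.0857). The other large SF3 subunits, named after their values were seen, were Sf3b2 at 0.08, Sf3b3 at -0.09 and Sf3a1 at -0.10 (edgeR adjusted p = 0.788, 0.722 and 0.775). For U2AF, no gene of 3 passed. U2af2, whose protein binds the polypyrimidine tract, had 51.9, 55.4, 42.4 and 41.1 CPM in CKO 1 to 4, against 52.5, 57.4, 50.5 and 66.0 CPM in WT 1 to 4 (log2 fold change -0.25, SE 0.14; edgeR adjusted p = 0.379). U2af1, whose protein reads the AG at the 3′ splice site, had 83.9, 72.1, 57.6 and 52.9 CPM in CKO 1 to 4, against 63.0, 47.8, 60.3 and 68.7 CPM in WT 1 to 4 (0.15, SE 0.17; edgeR adjusted p = 0.720). For U2af1, CKO 1 and 2 lay above every WT library and CKO 3 and 4 within their range. U2af1 shares 59.4% and U2af2 24.7% of its 50-base windows with other genes. U2af1l4, a relative of U2af1 with 97.2% of its windows in the overlapping record Gm49396, ran over 8.59 to 20.9 CPM in CKO and 6.74 to 9.93 CPM in WT (0.68; edgeR adjusted p = 0.217).

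The U1 snRNP genes did not pass in either direction, with 3 of 6 positive and a median of 0.08. Snrpa, which encodes an RNA-binding protein of the U1 snRNP, had 139.5, 149.8, 181 and 192 CPM in CKO 1 to 4, against 112, 115, 121 and 143 CPM in WT 1 to 4, so that CKO 1 lay below WT 4 (log2 fold change 0.43, SE 0.14; edgeR adjusted p = 0.115). Snrpc, whose protein contacts the 5′ splice site, ran over 44.9 to 65.6 CPM in CKO and 40.3 to 52.7 CPM in WT (0.32; edgeR adjusted p = 0.280). Snrnp70 encodes U1-70K and had 58.9, 62.1, 46.6 and 43.2 CPM in CKO 1 to 4, against 65.4, 65.2, 53.5 and 66.6 CPM in WT 1 to 4 (-0.25, SE 0.14; edgeR adjusted p = 0.395). Prpf40b, a U1-associated factor, ran over 8.88 to 12.6 CPM in CKO and 12.5 to 16.2 CPM in WT (-0.39; edgeR adjusted p = 0.197). Snrpa and Snrpc thus had positive values and Snrnp70 a negative one, all short of the threshold. In other settings, Prpf40b passed as lower with DESeq2 and Snrpa as higher with the library set as a term.

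The U4/U6 and U5 proteins held 3 of the 8 calls and also the lowest log2 fold change of all members. Snrnp27, which encodes the 27K protein of the tri-snRNP, had the highest log2 fold change of the 58. It stood at 66.5, 63.5, 54.7 and 55.0 CPM in CKO 1 to 4, against 40.0, 28.7, 29.7 and 41.7 CPM in WT 1 to 4. The groups were apart, with 59.9 ± 5.99 CPM in CKO and 35.0 ± 6.77 CPM in WT (SD, n = 4 each), and the log2 fold change was 0.78 (SE 0.15; edgeR adjusted p = 0.0415; exact two-sided permutation p = 0.0286). Snrnp40, the U5 WD40 repeat protein, had 174, 169, 178 and 173 CPM in CKO 1 to 4, against 109, 105, 116 and 141 CPM in WT 1 to 4, with the CKO values close together (0.56, SE 0.11; edgeR adjusted p = 0.0442). Prpf38a, which joins the spliceosome before activation, had 51.6, 54.7, 61.6 and 54.6 CPM in CKO 1 to 4, against 38.0, 27.7, 27.1 and 42.4 CPM in WT 1 to 4, and its adjusted p of 0.0497 was just under the threshold (edgeR; log2 fold change 0.72, SE 0.16).

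Snrnp200 encodes BRR2, the helicase that unwinds U4 from U6. It had 118, 112, 85.5 and 91.7 CPM in CKO 1 to 4, against 155, 167, 135 and 135 CPM in WT 1 to 4. Every CKO library was below every WT library, at 68.8% of the WT mean, with a log2 fold change of -0.54 (SE 0.14) that did not pass (edgeR adjusted p = 0.0647; exact two-sided permutation p = 0.0286). It did pass as lower with DESeq2, with limma-voom, with the library set as a term, with upper-quartile factors and with a filter at 1 CPM in 4 libraries. Prpf8 encodes the core U5 protein that cradles the catalytic RNA. It had 484, 468, 962 and 980.2 CPM in CKO 1 to 4, against 675, 656, 562 and 668 CPM in WT 1 to 4. CKO 3 and 4 were about 2.04 times CKO 1 and 2, with all WT libraries in between, and the log2 fold change over all libraries was 0.18 (SE 0.26; edgeR adjusted p = 0.797). Prpf19, the E3 ligase of the Prp19 complex, ran over 24.9 to 32.7 CPM in CKO and 24.7 to 36.0 CPM in WT (-0.09; edgeR adjusted p = 0.815).

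The 3 members of the U11/U12 snRNP, which serves the minor class of introns, were positive without passing. Snrnp35 had 7.58, 10.2, 7.32 and 7.91 CPM in CKO 1 to 4, against 5.43, 3.43, 5.15 and 6.82 CPM in WT 1 to 4, apart in all libraries at a low level (0.66, SE 0.24; edgeR adjusted p = 0.156). Snrnp25 ran over 24.4 to 28.1 CPM in CKO and 18.6 to 24.7 CPM in WT (0.26; edgeR adjusted p = 0.291). Snrnp48 had 162, 164, 100.3 and 97.6 CPM in CKO 1 to 4, against 113, 137, 117 and 128 CPM in WT 1 to 4, with CKO 1 and 2 above and CKO 3 and 4 below every WT library (0.08; edgeR adjusted p = 0.882).

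**Figure D2:**
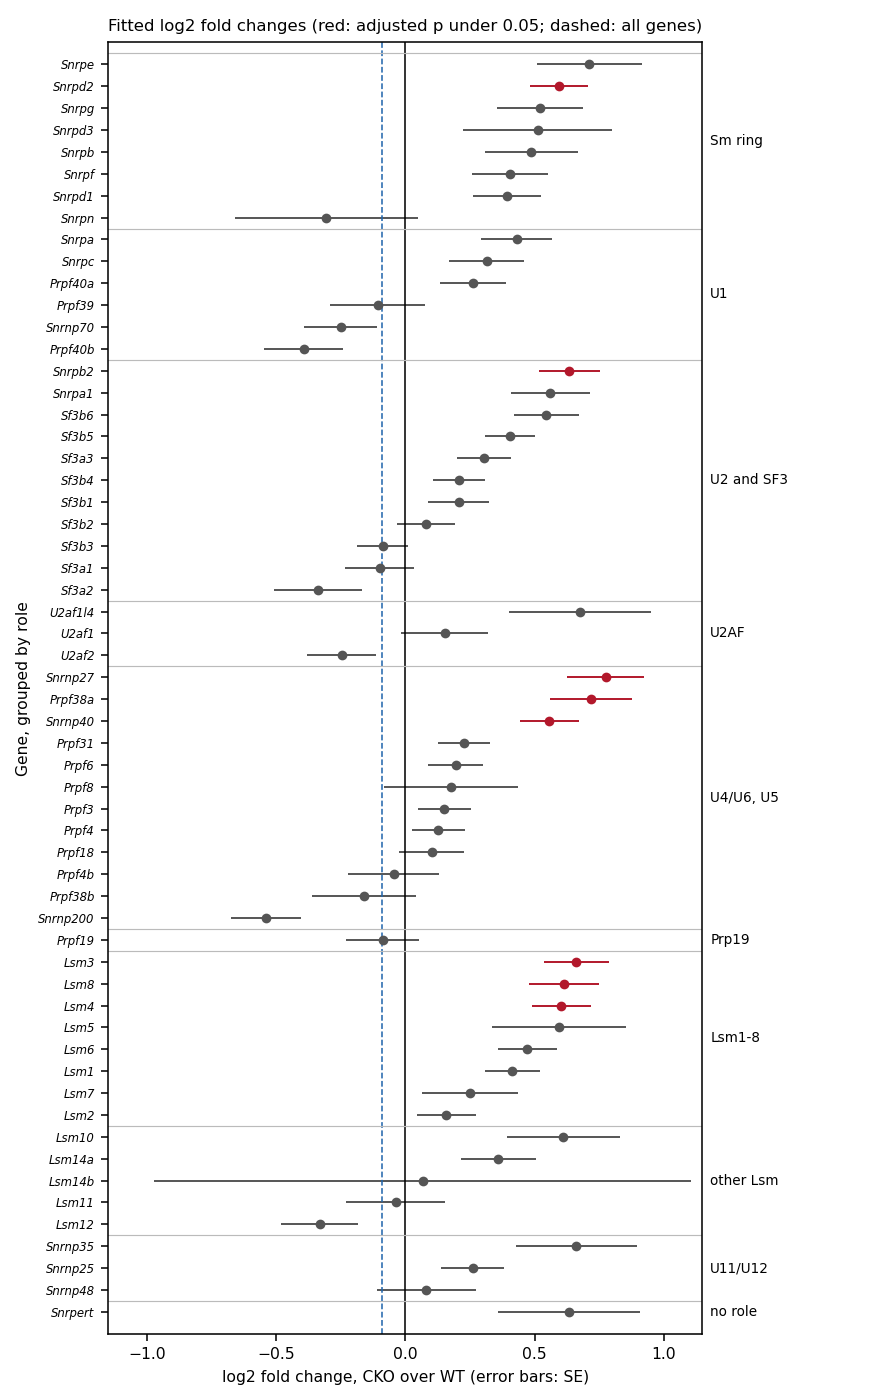
Points give the fitted log2 fold change of CKO over WT for each of the 58 genes, with bars of 1 SE, grouped by role and sorted within it; the dashed line is the median of all 27573 genes at -0.09. The 8 genes that passed (red) lie between 0.56 and 0.78, and Snrnp200 is lowest at -0.54.

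**Figure D3:**
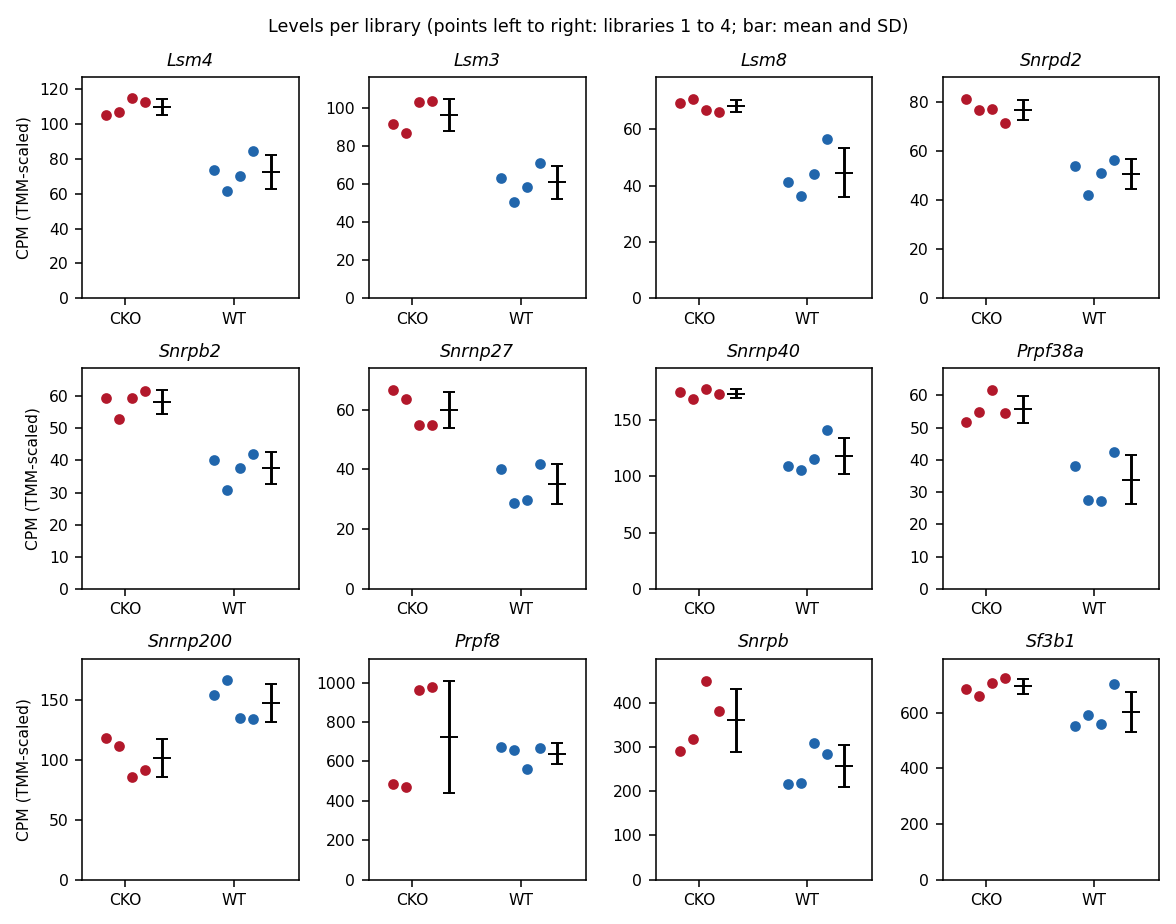
TMM-scaled CPM per library for the 8 genes that passed and 4 others, with CKO left of WT, points from left to right for libraries 1 to 4, and the mean with SD beside them; each axis starts at 0. The groups are apart for the 8 called genes and for Snrnp200, while Prpf8 splits the CKO libraries and Snrpb and Sf3b1 overlap.

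Promoter sequences are shown for Snrpb2 and Snrnp27, which rose, and for Snrnp200, which had the lowest log2 fold change, because all of them carry the same short motif. The windows run from 250 bases before to 50 bases after the start site (RefSeq, GRCm38.p6, the build of mm10), 5′ to 3′ on the gene's strand. Capitals mark CCGGAAG or its reverse complement, the core bound by ETS-family factors.
Snrpb2, chr2:143062819-143063118, plus strand: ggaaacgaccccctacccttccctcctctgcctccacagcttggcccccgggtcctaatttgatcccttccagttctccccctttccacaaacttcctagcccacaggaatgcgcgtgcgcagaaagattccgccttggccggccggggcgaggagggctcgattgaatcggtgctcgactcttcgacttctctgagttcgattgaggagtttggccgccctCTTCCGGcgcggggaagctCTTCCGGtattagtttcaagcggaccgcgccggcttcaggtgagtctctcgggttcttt
Snrnp27, chr6:86684442-86684741, minus strand: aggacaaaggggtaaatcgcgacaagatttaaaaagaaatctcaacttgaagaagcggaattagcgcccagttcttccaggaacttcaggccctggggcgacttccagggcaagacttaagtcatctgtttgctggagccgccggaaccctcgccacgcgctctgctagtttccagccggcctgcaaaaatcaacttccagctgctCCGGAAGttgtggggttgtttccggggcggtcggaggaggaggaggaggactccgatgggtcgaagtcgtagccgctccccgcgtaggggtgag
Snrnp200, chr2:127208136-127208435, plus strand: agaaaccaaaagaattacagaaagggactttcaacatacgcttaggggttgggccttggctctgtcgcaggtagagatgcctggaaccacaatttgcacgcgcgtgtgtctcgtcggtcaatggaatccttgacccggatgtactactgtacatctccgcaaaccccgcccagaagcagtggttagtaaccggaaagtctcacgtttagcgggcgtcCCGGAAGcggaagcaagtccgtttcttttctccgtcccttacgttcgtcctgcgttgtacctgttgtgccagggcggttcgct
In Snrpb2 the motif stands at -28 and -9 from the start site, in Snrnp27 at -44 and in Snrnp200 at -33. Of the 58 members 46 had a promoter entry, with 57 windows in all, since some genes had several. CCGGAAG on either strand was found in 18 of the 57 windows, or 31.6%, against 12.6% of 19770 windows of tested genes and 8.86% of all 32851 windows. It was in 2 of the 6 windows of genes that passed. CCAAT on either strand was in 40.4% of member windows and 37.4% of all windows, and TATAAA in 7.02% and 13.6%. A match is a description of letters, and binding was not measured here.

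The size of the change followed transcript length, among members as among all genes. The longest annotated transcript sorted the 16771 expressed genes (a mean of at least 1 CPM) into 5 groups of near equal number. In the shortest group, up to 1665 bases, 16 members had a median log2 fold change of 0.60, all 16 were positive and 3 passed as higher, where the median of all 3355 genes was 0.38 and 7.39% passed as higher. In the second group, up to 2669 bases, 15 members had a median of 0.41 and 3 passed, against 0.23 and 5.31% of all genes. In the third, up to 3669 bases, 9 members had a median of 0.23 and 2 passed, against 0.08 and 2.80%. In the fourth, up to 5061 bases, 8 members had a median of -0.10 and none passed, against -0.08 and 2.18%. In the longest, 10 members, among them Snrnp200, Prpf8 and Sf3b1, had a median of 0.10 and none passed, against -0.17 and 0.537%. Across the 58 members Spearman's rho between length and log2 fold change was -0.59, as a description over genes that share the same 8 libraries, and across all expressed genes it was -0.39.

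With the trend on length and on GC share (spline fits, library by library) taken out, no member passed in either direction (0 of 58; edgeR), with 20 higher and 3 lower at an unadjusted p under 0.05. The median of the members was then 0.21 and that of all tested genes -0.12, and the 8 genes lay between 0.32 and 0.69. Within the length groups the corrected medians of members were 0.25, 0.18, 0.23, 0.08 and 0.31 from shortest to longest, against 0.07 to 0.11 for all expressed genes.

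**Figure D4:**
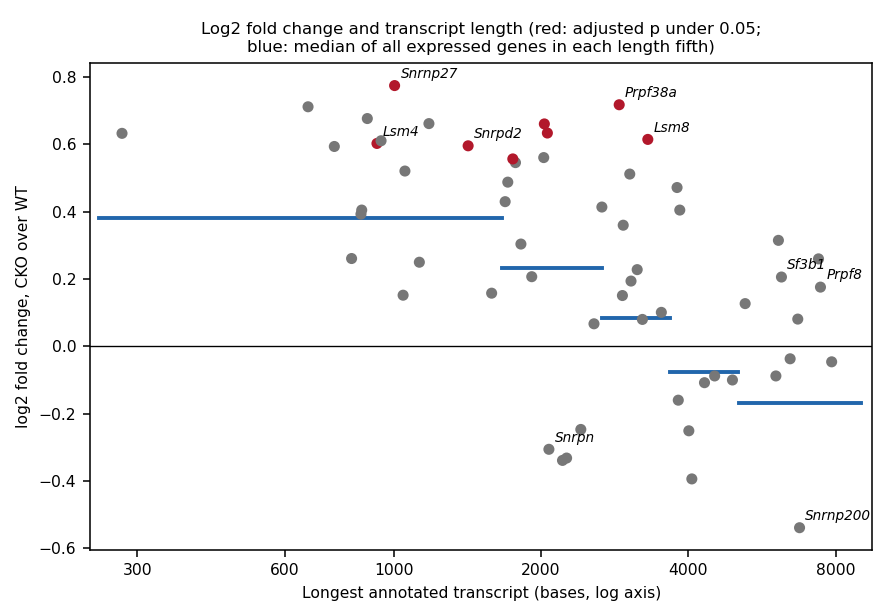
Each point is one of the 58 genes, with the length of its longest annotated transcript in bases on a log axis and its log2 fold change of CKO over WT; blue bars give the median of all expressed genes in each of 5 length groups, from 0.38 to -0.17. Genes that passed (red) have transcripts of 925 to 3305 bases.

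The CKO libraries resembled each other in pairs. The biological coefficient of variation was 0.245 for CKO 1 and 2 and 0.246 for CKO 3 and 4. It was 0.831 to 0.849 between those pairs, 0.327 to 0.356 among WT 1 to 3 and 0.746 to 0.857 between them and WT 4. Between CKO 3 and 4 and CKO 1 and 2, 9 members differed by more than 1.5 times. Higher in CKO 3 and 4 were Prpf8 (2.04 times), U2af1l4 (1.83 times) and Prpf38b (1.71 times). Lower in CKO 3 and 4 were Snrpd3 (0.579 of the level in CKO 1 and 2), Snrpn (0.520), Snrnp48 (0.607), Prpf39 (0.626), Prpf4b (0.654) and Lsm14b (0.181). Snrpd3, Prpf38b, Prpf39, Prpf4b and Lsm14b were named here for that reason. The neutrophil marker sum was 468, 515, 4033 and 4073 CPM in CKO 1 to 4, against 354, 279, 204 and 309.5 CPM in WT 1 to 4, and its part in these differences was not tested. Snrpd3 had 107, 111, 61.7 and 64.0 CPM in CKO 1 to 4, against 62.3, 45.1, 41.5 and 91.4 CPM in WT 1 to 4, with WT 4 also far above WT 1 to 3. Snrpd3 overlaps Gucd1 on the other strand, which holds 45.1% as many counts, and Prpf39 overlaps Fkbp3, which holds 271.6%, and whether the counting used strand is not stated in these sources.

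Within the set with more receptor reads, CKO 1 and 2 over WT 1 to 3, the members' median was 0.30, and within the set with few, CKO 3 and 4 over WT 4 alone, it was 0.18, against -0.04 and 0.06 for all genes. Of the 58, 34 were positive in both sets, 6 negative in both and 18 of opposite sign. For the 8 called genes every CKO library was above every WT library, so positive values in both sets were fixed in advance and test nothing. Their log2 fold changes were 0.99 and 0.40 for Snrnp27, 0.63 and 0.54 for Lsm3, 0.64 and 0.43 for Lsm4, 0.79 and 0.24 for Lsm8 and 0.64 and 0.52 for Snrpb2, with the set richer in receptor reads first. They were 0.70 and 0.40 for Snrpd2, 0.64 and 0.31 for Snrnp40 and 0.78 and 0.45 for Prpf38a. Snrnp200 was at -0.41 and -0.60. Prpf8 was at -0.41 and 0.54 and Snrpd3 at 1.13 and -0.54. The set with few receptor reads has 1 WT library, so the difference between sets was not tested.

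**Figure D5:**
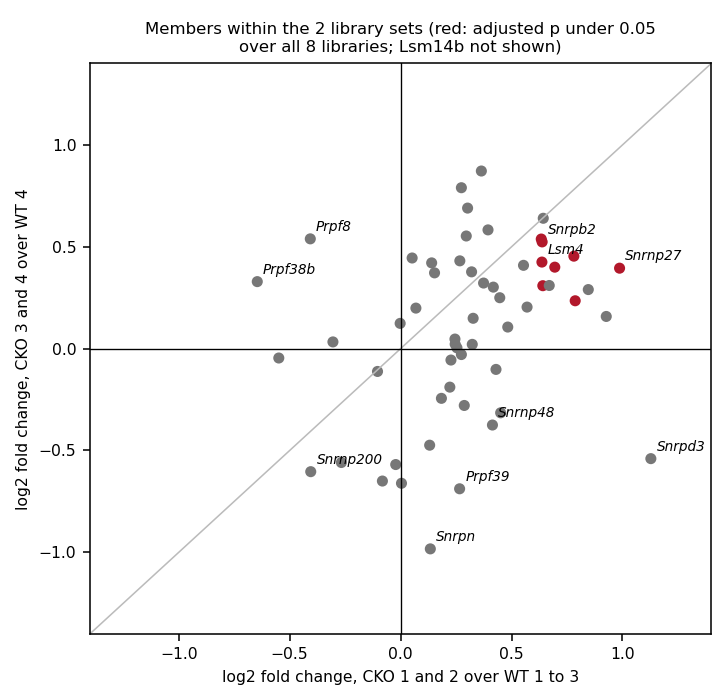
Each point is a member. The x axis gives its log2 fold change of CKO 1 and 2 over WT 1 to 3. The y axis gives that of CKO 3 and 4 over WT 4, and the diagonal marks equal values. Lsm14b (0.66 and -0.99) is not shown. The 8 genes that passed (red) are positive on both axes, which follows from their groups not overlapping. Prpf8 (-0.41 and 0.54) and Snrpd3 (1.13 and -0.54) have opposite signs.

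Other genes of splicing were taken from lists outside the name rule. Of 119 tested genes in 9 lists, 9 were higher and none lower in edgeR, against 2.22% and 0.588% of all genes, 93 had positive log2 fold changes, against 44.5% of all genes, and the median was 0.31. Those shares of all genes include weakly expressed ones. With a filter at 1 CPM in 4 libraries, 11 list genes were higher and 1 lower, against 4.11% and 2.76% of 17210 genes. These calls too changed with the setting. DESeq2 gave 21 higher and 3 lower, against 10.1% and 6.0% of the genes to which it gave an adjusted p. limma-voom gave 29 and 1, against 5.91% and 1.8% of all tested genes. No gene of the lists was higher with RLE factors, no filter, the replicate block, the Xist term, summed CKO pairs, the length and GC trend removed, the abundant gene classes left out, or any 1 library other than WT 4 left out, and 1 was higher with upper-quartile factors or library totals. Among 15 genes of the Prp19 complex and its partners, Syf2, a component of that complex, Cwc27, a cyclophilin-type protein of it, and Slu7, a factor of the second splicing step, rose (log2 fold changes 0.81, 0.56 and 0.50; edgeR adjusted p = 0.0345, 0.0442 and 0.0491). Syf2 had 131, 123, 149 and 151 CPM in CKO 1 to 4, against 87.2, 71.2, 68.7 and 88.1 CPM in WT 1 to 4, with no overlap. Among 16 genes of Sm ring assembly, Gemin7 and Gemin2 of the SMN complex, which loads Sm proteins onto snRNAs, and Phax, the snRNA export adaptor, rose (0.67, 0.54 and 0.44; edgeR adjusted p = 0.0408, 0.0408 and 0.0494). Among 10 genes of the exon junction complex and its partners, Rbm8a and Sap18 rose (0.75 and 0.61; edgeR adjusted p = 0.0457 and 0.0408). Zmat5, a U11/U12 protein, was the 1 of 9 genes of its list to rise (0.67; edgeR adjusted p = 0.0457).

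The remaining lists gave no calls. For 14 further snRNP partners such as Phf5a, Eftud2 and Txnl4a, 13 were positive with a median of 0.36. For 24 hnRNP proteins 21 were positive with a median of 0.30, and for 15 SR proteins 11 were positive with a median of 0.25, over a range of -1.11 to 0.77. For 8 splicing helicases of the DEAD and DEAH families 3 were positive with a median of -0.06. The transcripts of the lists with calls had median lengths of 2419 to 3428 bases, and those of the lists without calls 2764 bases for snRNP partners, 3434 for hnRNP proteins, 3527 for SR proteins, 3681 for helicases and 5642 for mRNA decay partners, so the ranges overlapped.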

How the data were processed

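For 8 libraries the authors deposited raw counts of reads by gene, whole and unscaled as the values show; the build is mm10, per the submitters' processing notes. No aligner, counter, strand or multi-mapping setting is named (not given in the sources used here). Tests ran in edgeR 4.0.16 (R 4.3.3): filterByExpr kept 27573 genes, TMM factors scaled the libraries, and a robust quasi-likelihood F-test compared CKO with WT, with Benjamini-Hochberg adjustment over all tested genes and a threshold of 0.05. SEs are the log2 fold change over the square root of F. Exact permutation tests used log2(CPM + 1) and all 70 assignments. They take all 8 libraries as separate units, which the resemblance of CKO libraries in pairs leaves uncertain. Transcript lengths and shared 50-base windows came from GENCODE M21, whose coordinates equal those of the table for 50 of the 58 members. Alternatives included DESeq2 1.42.0 and limma 3.58.1. The labels do not say that the numbers pair libraries, so the main fit was unpaired. Deviations of same-numbered libraries correlated at -0.26 to 0.39. They followed the library sets, with WT 4 at -0.41 and -0.38 with CKO 1 and 2 and at 0.38 and 0.39 with CKO 3 and 4. They cannot show whether the numbers pair libraries. Values within library sets came from a model with 1 mean per genotype and set, in which WT 4, alone, is assumed to vary like the others; sets were split at 300 CPM of receptor reads. The members, lists and alternatives were chosen with earlier results of these data known. Every member that passed was named, with the 3 of smallest p and the most abundant in each role and 9 core factors always, and up to 3 passing genes per other list. Members named outside this rule, Snrpert, Lsm11 and Lsm14b among them, were chosen after their values were seen; the 27 members outside it ranged from -0.34 to 0.63.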

Additional observations from a re-analysis of the deposited data

Results flagged for a closer look

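Among 64 groups of 4 libraries, for the 31 members named by the rule and Nynrin, 4 held a library far from the other 3, and chance flags about 1 group in 20. Snrpe was at 132.3 CPM in CKO 4, against 107.2 to 109.2 CPM in CKO 1 to 3. Sf3b6 was at 137.8 CPM in CKO 2, below the other CKO libraries and still above every WT library. Snrnp70 was at 53.5 CPM and Prpf8 at 562.0 CPM in WT 3, each below the other WT libraries.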

How the results depend on the processing

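Calls among the 58 genes moved strongly with the setting. The 8 called genes stayed positive in all 23 alternatives, but these refit the same libraries that picked the 8 and give no separate support. With 8 higher and 0 lower on all libraries, 0 were higher with RLE factors (median log2 fold change of the members 0.211), library totals (-0.012), no filter on low counts (0.275), Xist class as a term (0.348), summed CKO pairs (0.205), the length and GC trend removed (0.208) or mitochondrial, ribosomal protein and haemoglobin genes left out (0.176). Upper-quartile factors gave 2 higher and 1 lower (0.153), a filter at 1 CPM in 4 libraries 9 and 1 (0.166), no robust estimation 6 and 0, the library set as a term 14 and 1, DESeq2 13 and 2 (0.211), limma-voom 14 and 1 (0.303) and the 5 libraries with more receptor reads 12 and 1. Leaving out 1 library gave 0 to 13 higher, 0 lower and medians of 0.218 to 0.338. Same-numbered libraries were not paired in the main fit, since the labels do not say that the numbers pair them. Their deviations correlated at 0.198, 0.21, -0.256 and 0.387, and CKO 1, 2 and 3 each correlated best with another number. These deviations followed the library sets, so they cannot show whether the numbers pair libraries. Over all genes, calls were 13 higher and 22 lower with RLE factors, 59 and 318 with totals, 225 and 251 with upper-quartile factors, 33 and 16 with no filter, 707 and 475 with the 1 CPM filter, 430 and 130 without robust estimation, 1221 and 408 with the set term, 4 and 6 with the Xist term, 1656 and 980 with DESeq2, 1629 and 496 with limma-voom, 1311 and 857 in the set with more receptor reads, 0 and 0 with summed CKO pairs, 5 and 1 with the length and GC trend removed and 25 and 79 without the abundant gene classes. With the replicate block, 0 members were higher and 0 lower, and over all genes 0 were called, against 611 and 162.

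Signs changed only for genes that had not passed, and the genes that passed had been picked by their values in these same libraries. Snrnp48 was at -0.023 with upper-quartile factors, -0.144 with totals, -0.004 with the 1 CPM filter, -0.012 without the abundant gene classes and -0.035 to 0.213 when 1 library was left out. Totals also gave -0.062 for Sf3b1, -0.082 for U2af1, -0.149 for Prpf8 and -0.020 for Snrnp25. Prpf8 was at -0.081 with the set term, -0.132 with limma-voom and -0.415 in the set with more receptor reads, where Prpf19 was at 0.123 and Snrpn at 0.127. Prpf19 was at 0.020 with limma-voom and -0.251 to 0.019 when 1 library was left out. Removing the length and GC trend gave 0.116 for Prpf19, -0.126 for U2af1 and -0.083 for Snrnp25. The cause of these changes was not tested. Lsm14b, Snrpn, Snrnp35, Snrpert and Lsm11 averaged under 10 CPM, and Lsm14b had 0 to 91 counts per library.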
